A study of Mus musculus with 18 samples.

Results

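Transcripts of 9 genes that damp mitogen-activated protein (MAP) kinase signalling were followed through a time course of NIH3T3 cells, an established line of mouse embryo fibroblasts. The genes encode the dual-specificity phosphatases Dusp1, Dusp4, Dusp5, Dusp6, Dusp7 and Dusp10 and the Sprouty proteins Spry1, Spry2 and Spry4. They were chosen by their known role as feedback inhibitors of the ERK, p38 and JNK kinases, but with earlier results of these data known, and they are 9 of the 21937 genes in the table. All 9 were among the 12393 genes that were tested, those whose mean over the libraries reached 10 normalized reads. All cells had received 100 nM dexamethasone, a synthetic glucocorticoid, for 2 h before a change to normal medium, which set 0 h. Harvests followed at intervals of 4 h until 32 h, and each of the 9 times gave 2 sequencing libraries, called replicate 1 and replicate 2. There was no group without dexamethasone, so every comparison is between times after the same pulse and medium change. The labels do not say whether the replicates came from separate cultures, so the p-values measure the spread between these libraries, which may be technical.

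MAP kinases are switched on by phosphorylation of a threonine and a tyrosine in their activation loop, and dual-specificity phosphatases remove both phosphates. Dusp5, Dusp6 and Dusp7 act mainly on ERK, Dusp10 on p38 and JNK, and Dusp1 and Dusp4 on several of these kinases. Sprouty proteins act further up, between receptor tyrosine kinases and the ERK cascade. Growth factor signalling through ERK induces many of these genes, so that their products close a negative feedback loop, and Dusp1 is in addition a known target of the glucocorticoid receptor.

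The 18 libraries held 25.4 to 38.9 M reads. Replicate 1 libraries were the deeper ones in general, at 31.9 M or more, while those of replicate 2 reached at most 32.0 M. Their normalized totals lay between 29.97 and 35.1 M and were 34.9 to 35.1 M at 0 h and 29.97 to 30.4 M at 32 h. Scaling all libraries to equal totals therefore shifted the median log2 change of all tested genes against 0 h upward, by 0.03 at 4 h, 0.14 by 8 h and 0.21 by 32 h. At 32 h the split of called genes was 2536 higher and 2523 lower as deposited, and 5561 higher and 1301 lower with equal totals. All 8 fibroblast markers were detected, with a summed level of 851533 to 1226480 normalized reads per library. Of 7 epithelial markers 3 passed the filter on the mean, and their list summed to 1197 and 902 at 0 h and to 245 and 215 at 32 h, mostly from Krt8. Of 5 skeletal muscle markers 2 passed, and their sum, mostly Acta1, was 6196 and 5131 at 0 h and 1057 and 1040 at 32 h, with Myod1 at 0 in every library. Leukocyte markers summed to 174 to 302 normalized reads, endothelial to 37.4 to 103, adipocyte to 25.2 to 62.7 and neural to 255 to 723. The epithelial and muscle sums were thus higher at 0 h than at 32 h, like the members. The fibroblast sum was too, at 1155430 and 1226480 at 0 h and 874040 and 932221 at 32 h. The epithelial markers that did not pass, Epcam, Cdh1, Krt5 and Cldn4, had means of 0.37, 1.44, 1.19 and 0.33. The muscle markers Myog and Ckm had means of 0.21 and 1.99. The part of any of these lists in the members' falls was not tested.

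The sequences just upstream of 3 phosphatase genes are shown because their transcripts followed unlike courses, for which they were picked after the values had been seen: Dusp1 reached its later level by 4 h, Dusp5 had the largest fall of the 9, and Dusp10 did not pass the test at 4 h. They are the 250 bases before the RefSeq start site in GRCm38.p6, 5′ to 3′ on the gene's strand. They lie at chr17:26508473-26508722 on the minus strand for Dusp1, at chr19:53528895-53529144 on the plus strand for Dusp5 and at chr1:184034131-184034380 on the plus strand for Dusp10. Capitals mark matches of the motifs searched.
Dusp1: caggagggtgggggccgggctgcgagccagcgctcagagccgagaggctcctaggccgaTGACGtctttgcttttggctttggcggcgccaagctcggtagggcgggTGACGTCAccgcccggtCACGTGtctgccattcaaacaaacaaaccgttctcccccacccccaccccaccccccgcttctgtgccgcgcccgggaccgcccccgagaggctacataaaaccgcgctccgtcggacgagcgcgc
Dusp5: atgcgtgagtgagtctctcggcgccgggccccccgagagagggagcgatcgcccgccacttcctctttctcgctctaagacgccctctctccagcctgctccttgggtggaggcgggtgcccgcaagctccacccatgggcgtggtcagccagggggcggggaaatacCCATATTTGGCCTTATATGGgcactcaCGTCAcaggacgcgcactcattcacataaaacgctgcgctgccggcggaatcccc
Dusp10: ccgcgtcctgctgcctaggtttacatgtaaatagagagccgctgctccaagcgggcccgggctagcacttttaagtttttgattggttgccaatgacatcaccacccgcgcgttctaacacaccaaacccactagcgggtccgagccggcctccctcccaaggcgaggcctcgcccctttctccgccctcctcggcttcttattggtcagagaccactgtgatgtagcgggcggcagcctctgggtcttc

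In all, 7 motifs were searched on both strands of 7 members, from 250 bases before to 50 bases after the start sites. Dusp4 and Spry4 were not searched. Dusp1 held the whole cAMP response element (TGACGTCA), which starts 143 bases before the start site. The core of that element (TGACG) matched Dusp1 at 3 places, 2 of them inside the whole element, which reads the same on both strands. The Dusp1 window also held an E-box (CACGTG) that starts 126 bases before the start site. In Dusp5, 2 adjacent CArG boxes, the binding motif of serum response factor, start 82 and 72 bases before the start site, followed by 1 cAMP response element core at 55 bases. Dusp6, Dusp7, Dusp10, Spry1 and Spry2 held none of the 7 motifs in this window, which says only that these letters are not there. Over all 32851 promoters in the table, 1.79% held the whole cAMP response element, 20.8% its core, 7.15% the E-box and 1.63% a CArG box. At least 2 cores were held by 5.01%, and at least 2 CArG boxes by 6 promoters (0.0183%), Dusp5 among them. That cut-off is the number found in Dusp5, a gene picked for its fall, so the share is a description only. The AP-1 site (TGANTCA), the ETS site (CCGGAAG) and the hexamer of the glucocorticoid receptor (AGAACA) matched none of the 7 members searched. They matched 7.81%, 8.86% and 19.0% of all promoters.

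Transcripts of all 9 genes changed over the time course, and 8 of the 9 had their highest level at 0 h. For Dusp10 the mean at 4 h, 1940.5, and that at 0 h, 1949 ± 473 (SD, n = 2), differed by less than the spread of the 0 h libraries, and 4 h was the higher of these times by the mean of log2 values. The moderated F test of limma over the 9 times gave adjusted p-values from 3.94e-09 for Dusp6 to 0.000775 for Spry1, in a table where 52.0% of all tested genes passed. Against 0 h, 7 of the 9 were lower at 4 h (10.5% of all tested genes were called lower), and all 9 were lower at each of the 7 later times, where 17.1%, 18.2%, 17.8%, 19.0%, 18.6%, 20.0% and 20.4% of all tested genes were called lower, in order of time. The values themselves separated in the same way: both libraries lay below both of 0 h for 8 of the 9 genes at 4 h (29.1% of all tested genes) and for all 9 at each later time (32.1%, 31.8%, 33.6%, 33.4%, 31.8%, 34.4% and 35.3%). The median log2 change of the 9 genes against 0 h was -0.91 after 4 h and -1.13 after 8 h, and it reached -1.49 at the last time, while the median of all tested genes was -0.0015, -0.0043 and 0.013. With equal totals the members' counts were again 7 at 4 h and 9 at each later time, against 8.52% of all tested genes at 4 h, 9.26% at 8 h and 10.5% for 32 h. In bulk RNA, less transcript per cell and fewer cells that make it cannot be told apart. All comparisons with 0 h share the same 2 libraries of 0 h.

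**Figure D1:**
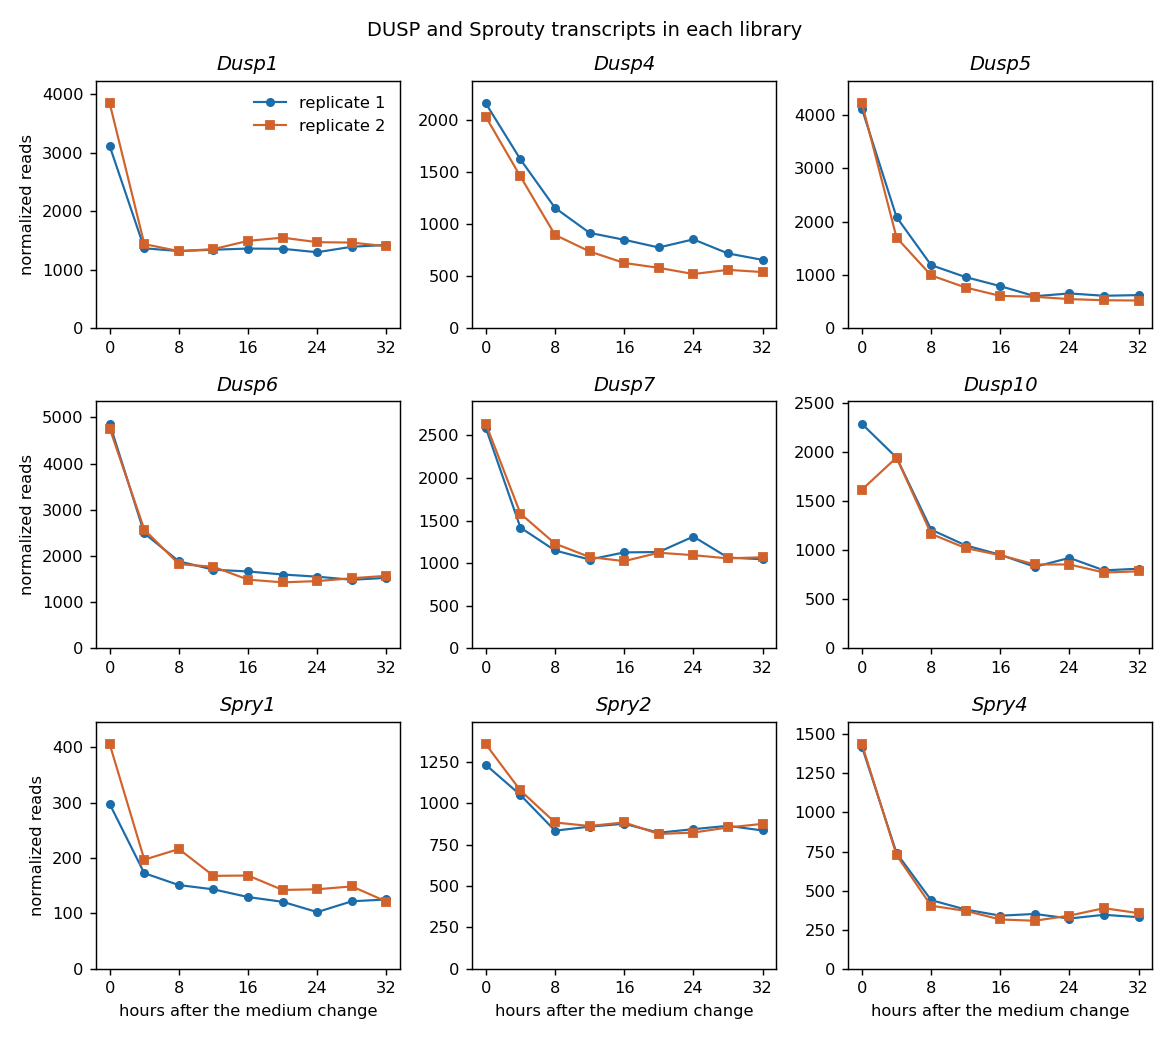
Normalized reads (vertical axis, from 0) against hours after the medium change for each of the 9 genes, with 1 line per replicate. In every panel the libraries from 8 h onward lie below both libraries of 0 h, and Dusp10 alone has a 4 h library above a 0 h library.

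Among the phosphatases of the nucleus, Dusp1, an early response phosphatase for p38, JNK and ERK, had reached its later level by 4 h. Its normalized reads from 0 h to 32 h in 4 h steps were 3111, 1363, 1317, 1339, 1359, 1355, 1296, 1390 and 1421 in replicate 1. In replicate 2 they were 3843, 1435, 1315, 1349, 1491, 1546, 1468, 1462 and 1399. Both 0 h libraries stood far above the other 16, which lay within a narrow band with no overlap. Dusp1 fell by 1.31 ± 0.0945 (SE) on the log2 scale from 0 h to 4 h (limma, adjusted p = 1.52e-06), a 2.47-fold lower level, and 58 of the 12393 tested genes had a lower log2 change there. Measured on the log2 scale, 105% of the difference between 0 h and 32 h was reached at 4 h in replicate 1 and 97.5% in replicate 2. From 4 h to 8 h the change of -0.09 did not pass (adjusted p = 0.639), nor did the 0.10 from 8 h to 32 h (adjusted p = 0.47).

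Dusp5, an ERK-specific phosphatase of the nucleus, had the largest fall of the 9 genes at 8 h and at every later time. Replicate 1 held 4116, 2082, 1180.3, 955, 786, 596, 648, 605 and 617 normalized reads from 0 h to 32 h. Replicate 2 held 4218, 1698, 987, 758, 603, 585, 542, 520.4 and 515. The 4 h libraries lay between those of 0 h and 8 h without overlap, and the series went on downward until about 20 h before levelling. Dusp5 fell by 1.15 ± 0.154 from 0 h to 4 h (adjusted p = 0.000188), with a further log2 change of -0.80 from 4 h to 8 h (adjusted p = 0.00444) and of -0.94 between 8 h and 32 h (adjusted p = 0.000668). At 32 h it stood at 13.6% of its 0 h level on average (15.0% in replicate 1 and 12.2% in replicate 2), a log2 change of -2.88 ± 0.154 (adjusted p = 6.04e-09), and 18 tested genes had a lower log2 change. Without replicate 2 of 8 h the change from 4 h to 8 h was -0.67 and did not pass (adjusted p = 0.0519).

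Dusp4, an inducible nuclear phosphatase related to Dusp1, fell more slowly. From 0 h to 32 h replicate 1 held 2158, 1620.2, 1154, 914, 847, 773, 851, 716 and 654 normalized reads. Replicate 2 held 2029, 1456, 894, 735, 625, 578, 518, 559 and 537. Replicate 2 was the lower library at all 9 times, and both libraries of 4 h lay below both of 0 h. The change of -0.45 ± 0.226 from 0 h to 4 h did not pass (adjusted p = 0.177), but did with the replicate number as a block (adjusted p = 0.0014), as did the -0.60 from 4 h to 8 h (adjusted p = 0.111 without the block and 0.000155 with it). Dusp4 was lower at 8 h than at 0 h by a log2 change of -1.04 ± 0.226 (adjusted p = 0.00289) and at 32 h by -1.82 ± 0.226 (adjusted p = 2.12e-05). Of its log2 difference between 0 h and 32 h, 24.0% in replicate 1 and 25.0% in replicate 2 was reached at 4 h. The change of -0.78 from 8 h to 32 h (adjusted p = 0.0199) did not pass without replicate 1 of 8 h (-0.59, adjusted p = 0.163) or without replicate 2 of 32 h (-0.63, adjusted p = 0.157).

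Of the cytoplasmic phosphatases of ERK, Dusp6 is the best known readout of ERK feedback. Its normalized reads in replicate 1 were 4861, 2490.4, 1885, 1703, 1665, 1599, 1552, 1485 and 1527 from 0 h to 32 h. In replicate 2 they were 4760.1, 2570.35, 1824, 1767, 1488, 1429, 1457, 1519 and 1571. The 3 first times were separate from each other in both replicates, and from 12 h onward the libraries lay close together. Dusp6 fell by 0.93 ± 0.0675 from 0 h to 4 h (adjusted p = 1.52e-06), with a log2 change of -0.45 from 4 h to 8 h (adjusted p = 0.000851), and it stood at 32.2% of its 0 h level at 32 h. The further change of -0.26 from 8 h to 32 h (adjusted p = 0.0115) was lost with equal totals (-0.19, adjusted p = 0.0516), without replicate 1 of 8 h (adjusted p = 0.081), and without replicate 1 or replicate 2 of 32 h (adjusted p = 0.0704 and 0.0507).

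Dusp7, a close relative of Dusp6, had 2585, 1417, 1148, 1042, 1126, 1130.4, 1312, 1065 and 1046 normalized reads in replicate 1 from 0 h to 32 h. Replicate 2 had 2633, 1581, 1229, 1071, 1023, 1122, 1093, 1056 and 1069. Both 0 h libraries were the highest, both 4 h libraries came next, and replicate 1 of 24 h lay above the other libraries from 8 h onward. The log2 change from 0 h to 4 h was -0.80 ± 0.0825 (adjusted p = 2.29e-05), and the level at 32 h was 40.5% of that at 0 h. The change of -0.33 from 4 h to 8 h (adjusted p = 0.0182) did not pass with equal totals (-0.23, adjusted p = 0.0698), without replicate 1 of 8 h (-0.28, adjusted p = 0.125) or without replicate 2 of 4 h (-0.25, adjusted p = 0.17).

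Dusp10, which prefers p38 and JNK over ERK, was the only one of the 9 whose libraries at 4 h and 0 h overlapped. Replicate 1 held 2283, 1940, 1208, 1047, 952, 829.7, 920.2, 793 and 811 normalized reads from 0 h to 32 h. Replicate 2 held 1615, 1941, 1164, 1019.8, 948, 854, 853, 772 and 784. The replicates differed mainly at 0 h, where the ratio of replicate 2 to replicate 1 was 0.707, and both 4 h libraries fell between the 0 h libraries. The 4 h change of 0.02 ± 0.11 did not pass (adjusted p = 0.937). It was 0.27 without replicate 1 of 0 h, which passed (adjusted p = 0.0224), and -0.23 without replicate 2 of 0 h (adjusted p = 0.0669), so its direction at 4 h rests on which 0 h library is used. Dusp10 then fell by 0.71 from 4 h to 8 h (adjusted p = 0.00104), changed by -0.57 from 8 h to 32 h (adjusted p = 0.00203), and at 32 h its log2 change against 0 h was -1.27.

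The Sprouty transcripts differed in the size of their falls. Spry4 held 1421, 740.3, 439.5, 379, 339.9, 351, 322, 346 and 330.0 normalized reads in replicate 1 from 0 h to 32 h. In replicate 2 it held 1436, 727, 403, 370.5, 316, 307, 340.3, 388 and 356. Both replicates were lower at 4 h than at 0 h and lower again at 8 h, with no overlap between these 3 times. Spry4 fell by 0.96 ± 0.0891 from 0 h to 4 h (adjusted p = 9.7e-06), and its log2 change from 4 h to 8 h was -0.80 (adjusted p = 8.33e-05). At 32 h it stood at 24.0% of its 0 h level, a log2 change of -2.06 (adjusted p = 1.05e-09), and 68 tested genes had a lower log2 change. The step of -0.30 from 8 h to 32 h passed (adjusted p = 0.0235), but not with equal totals (-0.23, adjusted p = 0.0722), without replicate 1 of 8 h (-0.23, adjusted p = 0.174), without replicate 1 of 32 h (-0.24, adjusted p = 0.149) or without replicate 2 of 32 h (-0.35, adjusted p = 0.0572).

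Spry2 moved least. It had 1234, 1051, 835, 860.0, 877, 823, 845, 865 and 837 normalized reads in replicate 1 from 0 h to 32 h. Replicate 2 had 1358, 1079, 885, 864, 886, 815, 824, 855 and 877. The 0 h libraries were the 2 highest and the 4 h libraries the next, and the 14 later libraries shared 1 band. Spry2 was lower at 4 h by -0.28 ± 0.0625 (adjusted p = 0.00622), which did not pass without replicate 2 of 0 h (-0.21, adjusted p = 0.0951). It was lower at 8 h than at 4 h by -0.31 (adjusted p = 0.00601), which did not pass without replicate 1 of 8 h (adjusted p = 0.0615) or replicate 2 of 4 h (adjusted p = 0.0539). At 32 h it stood at 66.2% of its 0 h level, a log2 change of -0.59, and 1106 of the 12393 tested genes had a lower change.

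Spry1 rested on the fewest reads, 119 in its lowest library, which limits its precision. Replicate 1 held 297, 172, 151, 143, 129, 121, 102, 122 and 125 normalized reads from 0 h to 32 h. Replicate 2 held 405, 197, 216, 168, 168, 142, 143, 149 and 121. Both 0 h libraries stood above the rest, and replicate 2 was the higher library at 8 of the 9 times. The log2 change from 0 h to 4 h was -0.91 ± 0.214 (adjusted p = 0.00877), but it did not pass without replicate 1 of 4 h (-0.81, adjusted p = 0.0679) or without replicate 2 of 0 h (-0.69, adjusted p = 0.121). The change at 8 h against 0 h was -0.94 ± 0.214 (adjusted p = 0.00405), and it did not pass without replicate 1 of 8 h (-0.68, adjusted p = 0.0576) or without replicate 2 of 0 h (-0.71, adjusted p = 0.0597). From 4 h to 8 h the change of -0.03 did not pass (adjusted p = 0.96), and at 32 h the log2 change against 0 h was -1.49 (adjusted p = 8.04e-05).

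**Figure D2:**
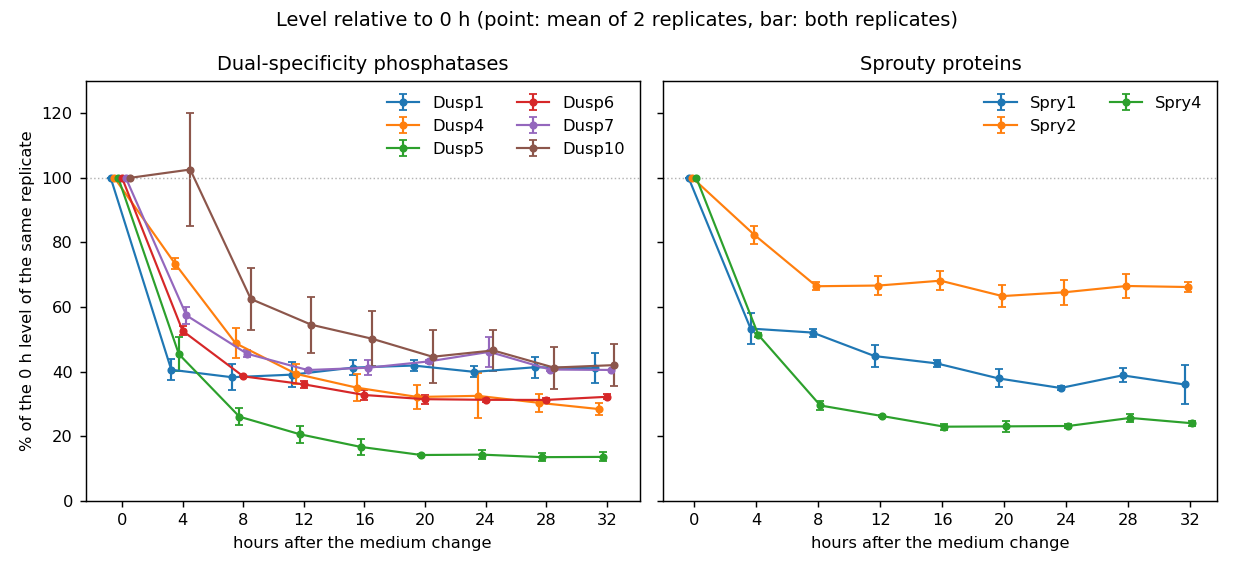
Level of each gene as a percentage of the 0 h level of the same replicate (vertical axis) against hours after the medium change, phosphatases on the left and Sprouty genes on the right, where points are means of 2 replicates and bars reach both replicates. At 32 h the means run from 13.6% for Dusp5 to 66.2% for Spry2, and Dusp10 is the 1 gene near 100% at 4 h.

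The courses of the 9 genes thus differed in how much of the fall came in the first 4 h. In replicate 1 and replicate 2, the share of the log2 difference between 0 h and 32 h that was reached at 4 h was 66.4% and 56.6% for Dusp7, 62.9% and 59.9% for Spry1, and 57.8% and 55.6% for Dusp6. It was 44.7% and 48.8% for Spry4, 41.2% and 52.6% for Spry2, and 35.9% and 43.3% for Dusp5. Dusp1 lay above all of these and Dusp4 below them in both replicates, and Dusp10 was lowest, at 15.7% in replicate 1 and at -25.5% in replicate 2, where it was higher at 4 h than at 0 h. These shares are descriptions of each replicate's series, and the values of neighbours such as Dusp7 and Spry1 overlap.

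Between 4 h and 8 h, 6 of the 9 were lower (6.41% of all tested genes were called lower): Dusp5, Spry4, Dusp10, Dusp6, Dusp7 and Spry2. From 8 h to 32 h, 5 were lower (14.1%): Dusp5, Dusp4, Dusp10, Dusp6 and Spry4. That count was 3 with equal totals, 3 without replicate 1 of 8 h, 3 without replicate 1 of 32 h and 2 without replicate 2 of 32 h. In the same comparison Spry1 had a log2 change of -0.55 that did not pass (adjusted p = 0.0709). It passed with the replicate block (adjusted p = 0.00185), with quantile normalization (-0.63, adjusted p = 0.0348) and without replicate 1 of 8 h (-0.81, adjusted p = 0.0407). None of the 9 was higher in either comparison.

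**Figure D3:**
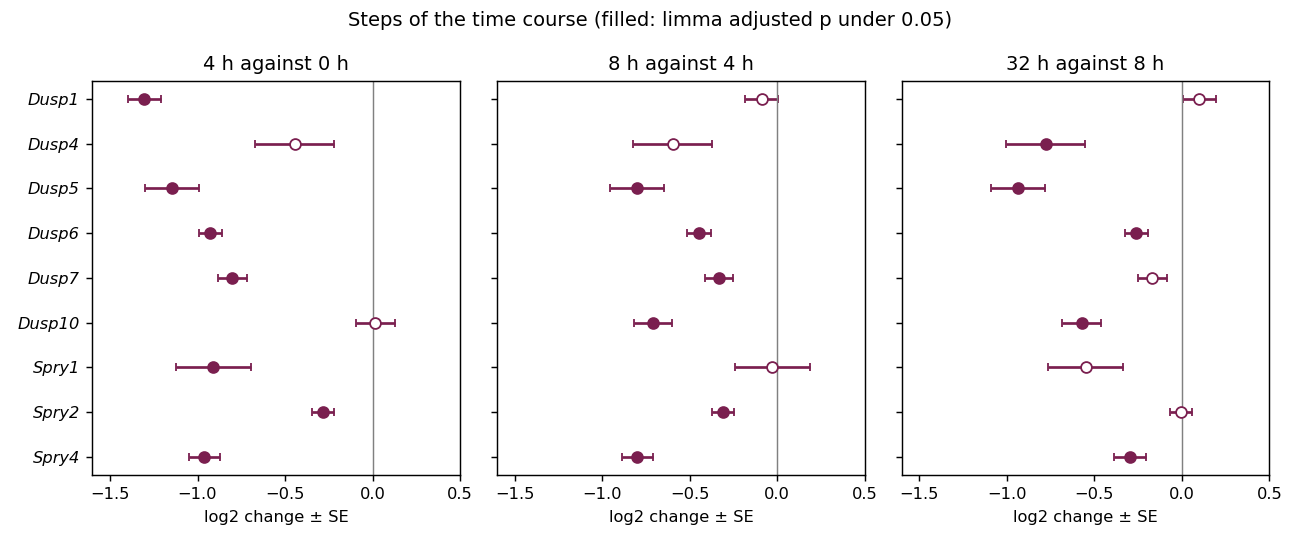
Log2 change with its standard error (horizontal axis) for each gene in 3 consecutive comparisons, 4 h against 0 h, 8 h against 4 h and 32 h against 8 h, with filled points where the limma adjusted p was under 0.05. Dusp1 is filled in the first panel only, Dusp10 in the other 2, and Dusp5, Dusp6 and Spry4 in all 3.

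The 28 h and 4 h samples lie 24 h apart, so they would share a phase of a cycle if its period were 24 h. The period in these cells was not measured here. There, 7 of the 9 were lower at 28 h (20.7% of all tested genes): the log2 changes were -1.74 for Dusp5, -1.31 for Dusp10, -1.28 for Dusp4, -1.001 for Spry4, -0.75 for Dusp6, -0.50 for Dusp7 and -0.31 for Spry2. Spry2 did not pass with equal totals (-0.13, adjusted p = 0.0979). Dusp1, at 0.03, did not pass (adjusted p = 0.84), nor did Spry1, at -0.45 (adjusted p = 0.107). Spry1 passed with the replicate block (adjusted p = 0.00597) and with quantile normalization (-0.57, adjusted p = 0.0395). The other pairs of times 24 h apart are 24 h against 0 h, where all 9 were lower (18.6%), and 32 h against 8 h, where 5 were (14.1%).

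A rhythm with a period of 24 h, fitted as a cosine and a sine, was called for none of the 9 genes by limma, with adjusted p-values from 0.258 to 0.759, against 0.371% of all tested genes. At an unadjusted p under 0.05 limma called 1 gene of the list, Dusp7, and 2107 of the 12393 tested genes. Of the list, edgeR and DESeq2 called 0 after adjustment. When a linear term was added to the rhythm model, 3 of the 9 and 2108 of the 12393 tested genes passed. The 3 were Dusp7 (adjusted p = 0.0228), Spry4 (adjusted p = 0.0294) and Dusp10 (adjusted p = 0.0325). The linear drift beside the cosine and the sine was downward for all 9 (27.3% of all tested genes), from -1.87 log2 units per 24 h for Dusp5 to -0.33 for Spry2. The drift of Dusp1, -0.44 (adjusted p = 0.0365), had the largest p of the 9. It did not pass with equal totals (adjusted p = 0.124), without the variance trend (adjusted p = 0.0512), in replicate 1 alone (adjusted p = 0.175) or in replicate 2 alone (adjusted p = 0.17). Nor did it pass without replicate 1 of 0 h, 20 h, 24 h or 28 h, or without replicate 2 of 0 h or 24 h (adjusted p-values of 0.0502 to 0.14), and without the times 0 h and 4 h it was 0.11 and did not pass (adjusted p = 0.219). Without those times the drift of Dusp7 was -0.18 (adjusted p = 0.0869) and that of Spry2 was 0.01 (adjusted p = 0.94).

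From 12 h onward the values moved less. Over these 12 libraries the ratio of the highest to the lowest ranged from 1.09 for Spry2 to 1.86 for Dusp5, against 1.67 and 8.19 over all 18. In a test over the times from 12 h to 32 h, chosen after the values had been seen, only Dusp10 differed among times (adjusted p = 0.0148), against 6.64% of all tested genes. A linear trend over the same times was downward for Dusp5, by -0.66 ± 0.157 log2 units per 24 h (adjusted p = 0.00452), and for Dusp10, by -0.45 ± 0.0764 (adjusted p = 0.000402), against 16.0% of all tested genes. The trends of the other 7 did not pass and lay between -0.51 for Dusp4 (adjusted p = 0.0691) and 0.05 for Dusp1.

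The 2 replicate series stood apart for many of the tested genes, and the members were not particular in this. In the model with the replicate number as a block, a test also chosen after the values had been seen, 4 of the 9 genes differed between replicate 2 and replicate 1, as did 37.9% of all tested genes. Dusp4 was lower in replicate 2, by a log2 difference of -0.35 ± 0.0463 (adjusted p = 1.02e-05), with ratios of replicate 2 to replicate 1 from 0.609 at 24 h to 0.941 at 0 h. Dusp5 was lower by -0.22 ± 0.0389 (adjusted p = 0.000191) and at 8 of 9 times. Spry1 was higher in replicate 2 by 0.30 ± 0.0608 (adjusted p = 0.000689), and Dusp1 by 0.10 ± 0.0321 (adjusted p = 0.0146), at 8 and 7 of the 9 times. What set the replicates apart is not given in the labels, and the replicate 2 libraries were also, in general, the less deeply sequenced; the part of depth was not tested.

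**Figure D4:**
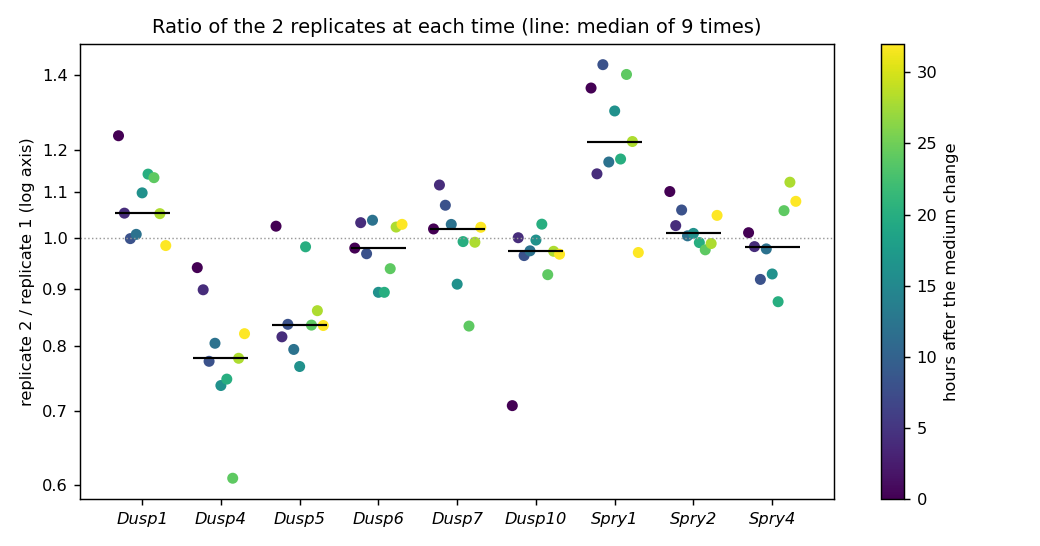
Ratio of replicate 2 to replicate 1 in normalized reads (vertical log axis) at each of the 9 times for each gene, coloured by hours after the medium change, with a line at the median. All 9 points of Dusp4 lie below 1, and the median ratio is 0.78 for Dusp4, 0.835 for Dusp5 and 1.22 for Spry1.

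Of 12 other dual-specificity phosphatases and Sprouty or SPRED genes, 11 were tested (Spry3 was at 0 in every library). At 32 h against 0 h 7 were lower (20.4% of all tested genes) and none higher (20.5%), with a median log2 change of -0.65. Spred2 and Spred1, which hold back Ras activation of Raf, were lower by -1.03 ± 0.104 (adjusted p = 3.19e-06) and -0.65 ± 0.0865 (adjusted p = 3.89e-05). Dusp3 was higher at 4 h by 0.31 ± 0.0782 (adjusted p = 0.0126) and lower at 32 h by -0.65 (adjusted p = 1.53e-05). The call at 4 h was lost without replicate 1 of 0 h (0.28, adjusted p = 0.0577), replicate 2 of 0 h (0.34, adjusted p = 0.0508) or replicate 2 of 4 h (0.22, adjusted p = 0.109). At 32 h Dusp16, a JNK phosphatase, was at -0.38 (adjusted p = 0.00148), or -0.17 with equal totals, which did not pass (adjusted p = 0.0745). The lowest of the list was Dusp2, at -2.11 ± 0.38 (adjusted p = 0.000507), a gene named after its value was seen. With equal totals 1 gene of this list was called higher.

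Transcripts of the kinase cascades that these proteins hold back went in both directions, as did all tested genes. At 32 h against 0 h 20.4% of all tested genes were called lower and 20.5% higher. Of 17 ERK cascade genes 15 were tested (Rps6ka1 was too low, and Hras was not analysed here), and at 32 h 6 were lower and 2 higher than at 0 h, with a median log2 change of -0.14. With equal totals the split turned to 2 lower and 5 higher, and the replicate block called 4 higher. Sos2, an exchange factor that loads Ras with GTP, was lower by -0.64 ± 0.0663 (adjusted p = 4.02e-06). Map2k1, which encodes the ERK kinase MEK1, was higher at 4 h by 0.45 ± 0.0557 (adjusted p = 9.11e-05) and lower at 32 h by -0.28 (adjusted p = 0.000977), the latter not with equal totals (-0.07, adjusted p = 0.273). Mapk3, which encodes ERK1, was lower by -0.40 ± 0.123 at 4 h (adjusted p = 0.0331), though not without replicate 1 of 4 h (-0.28, adjusted p = 0.242) or replicate 2 of 0 h (-0.26, adjusted p = 0.316). It was lower by -0.55 ± 0.123 at 8 h (adjusted p = 0.00358), though not without replicate 2 of 0 h (-0.41, adjusted p = 0.0557). At 32 h Mapk3 was at 0.20 (adjusted p = 0.225), which passed with the replicate block (adjusted p = 0.00619) and with equal totals (0.41, adjusted p = 0.00944). The adaptor Shc1 was at -0.17 (adjusted p = 0.0335) and at 0.05 with equal totals. Shc1 also did not pass without replicate 1 or replicate 2 of 0 h (adjusted p = 0.0857 and 0.121) or without replicate 1 of 32 h (adjusted p = 0.212).

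In the p38 and JNK cascades, 15 of 16 genes were tested. At 32 h 5 were lower and 3 higher (20.4% and 20.5% of all tested genes), with a median of -0.06. The counts were 3 lower and 5 higher with equal totals, 3 lower without replicate 2 of 32 h, and 1 higher without replicate 1 of 32 h or replicate 2 of 0 h. Map2k3, a p38 kinase, was lower by -0.84 ± 0.0514 (adjusted p = 2.41e-08), and Mapkapk3, a kinase that p38 activates, was higher by 1.48 ± 0.219 (adjusted p = 0.0001). Mapk14, which encodes p38 alpha, was higher by 0.23 (adjusted p = 0.00671), but not without replicate 1 of 32 h (adjusted p = 0.0595) or replicate 2 of 0 h (adjusted p = 0.0812). Map3k5, which encodes the stress kinase ASK1, was lower at 4 h by -0.58 ± 0.0988 (adjusted p = 0.00114). At 32 h Map3k5 was at 0.24 (adjusted p = 0.0645), which passed without the variance trend (adjusted p = 0.0179) and, at 0.45, with equal totals (adjusted p = 0.00173).

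Other transcripts that ERK signalling is known to induce were mostly lower than at 0 h, as the members were. Between later times a few were called higher, as were many genes outside the list. No member was, but with so few genes in each list the 2 lists cannot be set apart by this. All 17 listed were tested. At 8 h against 4 h 1 was higher and 3 lower. At 28 h against 4 h 2 were higher and 11 lower, and at 32 h against 8 h 2 and 6. In that order, 600, 2557 and 1669 of the 12393 tested genes were called higher, and 795, 2569 and 1753 lower. The list's lowest and highest log2 changes are named here after they were seen. They were -1.83 for Egr2 and 0.78 for Egr1 at 8 h against 4 h, and -2.21 and 1.31 for the same genes at 28 h against 4 h. At 32 h against 8 h they were -0.77 for Etv4 and 1.41 for Fos. Against 0 h, 9 were lower and 2 higher at 4 h, 11 and 1 at 8 h, and 13 and 1 at 32 h. The medians were -0.55, -1.17 and -1.24. Of all tested genes, 10.5%, 17.1% and 20.4% were called lower in these comparisons, and 11.0%, 17.3% and 20.5% higher. The 1 called higher at 32 h was the ETS factor Etv1, at 1.25 ± 0.176 (adjusted p = 6.45e-05), named after its value was seen. Egr2, an early growth response factor, fell by 1.94 ± 0.125 at 4 h (adjusted p = 5.47e-07) and was at -3.74 ± 0.125 at 32 h (adjusted p = 7.81e-11). Junb, a subunit of AP-1, fell by 2.14 ± 0.175 at 4 h (adjusted p = 3.37e-06) and was at -2.28 at 32 h (adjusted p = 2.45e-07). Ier2 and Phlda1 were at -1.42 and -1.24 at 32 h, with adjusted p-values of 1.69e-07 and 6.33e-07. The 2 called higher at 4 h were 1 without replicate 1 or 2 of 0 h or without replicate 2 of 4 h. The 1 called higher at 8 h was 0 without replicate 1 of 0 h or replicate 2 of 8 h, 2 without replicate 1 or 2 of 24 h, and 3 with equal totals or the replicate block.

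Of 13 growth factor receptors, at the head of the pathway, 11 were tested. At 32 h 4 were lower and 3 higher (20.4% and 20.5% of all tested genes), with a median of -0.06. The count of lower genes was 2 with equal totals or without replicate 1 of 0 h. Fgfr1, a fibroblast growth factor receptor, was lower by -0.88 ± 0.0849 (adjusted p = 2.11e-06) and Igf1r by -0.37 (adjusted p = 9.54e-05). Met was higher by 0.33 (adjusted p = 0.00111) and Pdgfrb by 0.23 (adjusted p = 0.0108), the latter not without replicate 1 of 0 h (adjusted p = 0.0799) or replicate 2 of 32 h (adjusted p = 0.105). All 12 further inhibitors of receptor tyrosine kinases and Ras were tested. At 32 h 8 were lower and 2 higher (20.4% and 20.5% of all tested genes), with a median of -0.40. That was 5 lower with equal totals or without replicate 1 of 0 h, and 1 higher without replicate 2 of 0 h or of 32 h. Errfi1, a feedback inhibitor of the EGF receptor, fell by 2.22 ± 0.136 at 4 h (adjusted p = 4.96e-07) and was at -2.43 at 32 h (adjusted p = 1.1e-08). The ubiquitin ligase Cblb was at -1.08 (adjusted p = 2.58e-06), the Ras GTPase activators Rasa2 and Dab2ip at -0.73 and -0.42 (adjusted p = 2.84e-06 and 0.000117).

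Known glucocorticoid receptor targets were tested because the cells had been given dexamethasone until 0 h. Of 8 listed, 7 were tested. Against 0 h, all 7 were lower at 4 h and at 8 h, and 5 at 32 h. Of all tested genes, 10.5%, 17.1% and 20.4% were called lower there. From 4 h to 8 h 1 of the 7 was lower (6.41% of all tested genes). At 28 h against 4 h 2 were lower (20.7%) and 2 higher, and at 32 h against 8 h 1 was lower (14.1%) and 3 higher. Of all 12393 tested genes, 2557 and 1669 were called higher in the last 2 comparisons. Fkbp5, which encodes a co-chaperone of the receptor, fell by 0.97 ± 0.0628 at 4 h (adjusted p = 5.47e-07) and was at -1.48 at 32 h (adjusted p = 8.82e-10). Per1, a clock gene, fell by 1.12 ± 0.0819 at 4 h (adjusted p = 1.52e-06) and was at -0.89 at 32 h (adjusted p = 1.24e-06). Tsc22d3, which encodes the leucine zipper protein GILZ, was at -0.63 at 4 h (adjusted p = 0.0044) and at -0.82 at 32 h (adjusted p = 0.000206), and Sgk1 was at -0.67 at 32 h (adjusted p = 2.82e-06). Without replicate 2 of 0 h, 4 of the 7 were lower at 4 h, and Tsc22d3 did not pass (-0.49, adjusted p = 0.0722). With equal totals or the replicate block, 1 gene of this list was called higher at 32 h against 0 h. The part of the glucocorticoid pulse and of the medium change in the members' falls cannot be told apart, since all cells had both.

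**Figure D5:**
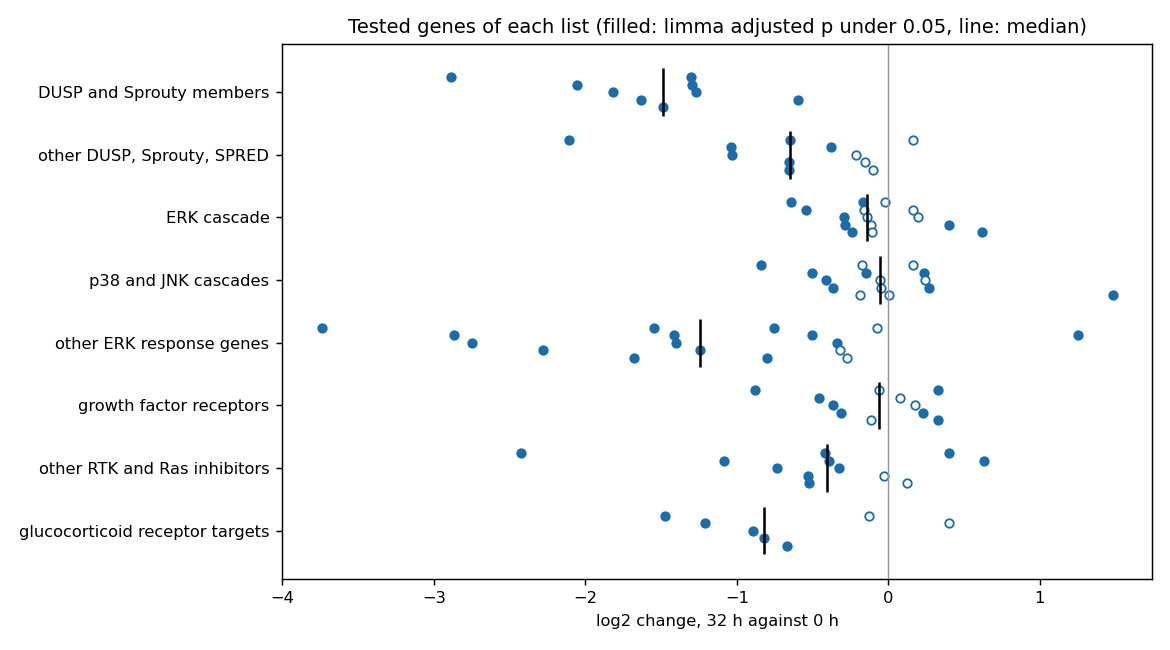
Log2 change at 32 h against 0 h (horizontal axis) of every tested gene in each list, with filled points where the limma adjusted p was under 0.05 and a line at the list's median. All 9 members are filled and below 0, with a median of -1.49, and the other ERK response genes have a median of -1.24, while the kinase cascades and receptors lie on both sides of 0.

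For each member, the genes outside the list with the most similar course were taken by Pearson's correlation of the 9 time means of log2(value + 1), among 6132 genes that passed the F test with a mean of at least 50. These correlations describe curves that share the same 0 h libraries. The most similar gene was Zfp36, an mRNA decay factor, for Dusp1 (r = 0.991), Ifrd1 for Dusp4 (r = 0.995), Iffo2 for Dusp5 (r = 0.999), Fbln5 for Dusp6 (r = 0.998), Hmox1 for Dusp7 (r = 0.99) and Ppard for Dusp10 (r = 0.997). For the Sprouty genes it was Rhbdf1 for Spry1 (r = 0.986), Spred2 for Spry2 (r = 0.996) and Hmgxb3 for Spry4 (r = 0.997). Cnnm4 was the second most similar gene to both Spry2 and Spry4. Among the members themselves, over the same 9 means, the least similar pair was Dusp1 and Dusp10 (r = 0.58), while r was 0.991 for Dusp4 with Dusp5 and for Dusp6 with Spry4.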

How the data were processed

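RNA was sequenced from 18 NIH3T3 libraries, 2 at each of 9 times. The deposited signal is 1 normalized read count per gene and library. The submitters' processing notes name TopHat, HTSeq, DESeq and the mouse build mm9, without versions or roles; the annotation and strand handling are not given in the sources used here, so overlapping or antisense genes may share reads. From the values, each column is a read count divided by 1 factor per library (0.728 to 1.16): 100% of values came out whole within 0.02 reads, which gave the reads used for edgeR 4.0.16 and DESeq2 1.42.0 as alternatives. They called 6392 and 6626 genes over the 9 times, and limma 6439.

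Genes with a mean of at least 10 were tested here with limma 3.58.1 in R 4.3.3 on log2(value + 1), with a variance trend, all 18 libraries, time as 9 levels and Benjamini-Hochberg adjustment over all 12393 genes at 0.05. Fold changes are on that log2 scale, which slightly understates those of low genes. Contrasts were each time against 0 h, 8 h against 4 h, 28 h against 4 h and 32 h against 8 h, with F tests over times and for a 24 h rhythm. Same-numbered libraries deviated together (correlations 0.23 to 0.502 in 36 of 36 pairs of times, from the data), so a replicate block was an alternative, beside other scalings, filters, pseudocounts and each library left out. Of each gene list outside the members, the 4 genes with the smallest p over the 9 times were named. The members and lists were chosen with earlier results of these data known. Promoter sequences come from RefSeq (GRCm38.p6) and were searched for 7 of the 9 genes. The procedure was run on simulated data, and the outcome is not reported here. Those libraries were drawn independently, with the same setting of the spread for all genes and a single step or a cosine as the change. The simulation therefore does not cover same-numbered libraries that deviate together, spreads that differ between genes, or gradual courses.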

Additional observations from a re-analysis of the deposited data

How the results depend on the processing

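Of 3726 values for the members under 34 alternatives, 3668 kept their direction and their side of the threshold, 33 no longer passed, 11 newly passed and 14 changed sign, 2 of these among called values. The members' counts against 0 h were 5 to 8 at 4 h, 8 or 9 at 8 h and 9 at each later time under the alternatives run. For 32 h against 8 h the count of 5 was 3 with equal totals and 2 to 5 with a library left out, and with a linear term the rhythm was called for 3. Signs changed for Dusp10 at 4 h against 0 h (-0.013 with edgeR, -0.0093 with DESeq2, and -0.23 to 0.27 with a library left out). For 8 h against 4 h they changed for Dusp1 (0.019 with equal totals) and Spry1 (0.078 with equal totals, and -0.29 to 0.23 with a library left out). Dusp1 at 28 h against 4 h ran from -0.0098 to 0.064 with a library left out, and Spry2 at 32 h against 8 h from -0.047 to 0.036, and was at 0.065 with equal totals. Without 0 h and 4 h, the drift was 0.11 for Dusp1 and 0.0067 for Spry2. Shc1 at 32 h was at 0.047 with equal totals. The cause was not tested.

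With the replicate block, the members' counts were 8 for 4 h against 0 h, 7 for 8 h against 4 h, 8 for 28 h against 4 h and 6 for 32 h against 8 h, and it changed no other call of a member. Over all tested genes, higher and lower together, it moved the calls in the first of these from 2664 to 4662. In the second it moved them from 1395 to 3043 and in the last from 3422 to 5241. With a library left out, these 3 counts were as low as 971, 572 and 1554, the 4263 calls at 8 h against 0 h as low as 2571, and the 5126 at 28 h against 4 h as low as 3409. Equal totals gave 2381 calls for 8 h against 4 h. The 46 rhythm calls became 26 without the filter, 19 with equal totals, 533 with DESeq2, 74 with the block, 2108 with a linear term, 344 at a period of 26 h and 142 without 0 h and 4 h, 18 at the lowest with a library left out, and 2 and 1 in either replicate series alone. The 6880 drift calls became 4462 without 0 h and 4 h and 4202 in replicate 2 alone. Depth limits Spry1 most, whose lowest library held 119 reads.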
